A study of Mus musculus with 22 samples.

Results

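Male livers that received vehicle alone were compared at the same clock time on 2 consecutive days, as all genes expressed in nuclear RNA of 4 pools. Male CD-1 (ICR) mice from Charles River, 7 weeks old, were injected with vehicle (1% DMSO in corn oil) in the early morning, and liver was collected in the late morning either 3 h later on the same day or 27 h later on the next day. Each time is represented by 2 pools, which join nuclear RNA from 4 livers each at 3 h and from 3 livers each at 27 h, so that 8 and 6 livers stand behind the comparison. The 4 vehicle pools are part of a series of 22 pools that also holds males given TCPOBOP at 3 mg/kg on the same schedule (2 pools at each time), the corresponding female groups, and males given PCN or its own vehicle for 3 h. TCPOBOP is an agonist of the nuclear receptor CAR and PCN an agonist of PXR, and neither was given to the vehicle mice. RNA came from isolated nuclei and was sequenced after poly(A) selection with a strand-specific kit, so the values describe polyadenylated transcripts inside the nucleus. Day of collection, hours since the injection and number of livers per pool all separate the groups and cannot be told apart.

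Genes were kept when their mean was 1 FPKM (fragments per kilobase of transcript, scaled to library depth) or more in either vehicle group, which held for 10308 of the 24197 genes in the table. The change of a gene is the log2 quotient of its 27 h mean over its 3 h mean, each raised by 0.1 FPKM, less the median quotient of all kept genes, which was 0.09. The deposited values are group means, but their 11 decimals fix the FPKM of both pools behind each mean. The reads of a gene follow only up to a common factor. Pool values were recovered that way for 10307 of the kept genes. Recovered depths were 32789427 and 29087017 reads for the 3 h pools and 40784530 and 29378749 reads for the 27 h pools. At these depths 1 FPKM in a transcript of 1 kb stands for 62 reads over both 3 h pools, with a 95% Poisson interval of 47.5 to 79.5 reads that covers counting error only. Below, pools are named by depth as the deeper and the shallower one, because the files do not say which pool is which. Xist was at 0.084 and 0.102 FPKM and Ddx3y at 21.3 and 18.9 FPKM at 3 h and 27 h, and the table's hepatocyte markers were all present, with a summed mean of 3918 FPKM at 3 h and 3136 FPKM at 27 h.

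The liver makes most plasma proteins, bile acids and much of the body's cholesterol, and each of these programmes answers to a signal of its own. Interleukin 6 and STAT3 drive the acute-phase proteins after injury or inflammation, SREBP2 drives the cholesterol pathway when sterols in the endoplasmic reticulum are low, and the transcription factors XBP1 and ATF6 raise chaperones when the folding load grows. Pulses of pituitary growth hormone, acting through STAT5, set the sex-biased genes, among them the major urinary proteins of male mice.

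Between the 2 days, 121 genes were at least 2-fold higher at 27 h and 163 at least 2-fold lower, which is 1.17% and 1.58% of the kept genes. The SD of the change over all kept genes was 0.42 on the log2 scale. Between the 2 pools of one group the SD of the difference was 0.29 at 3 h and 0.31 at 27 h. At least 2-fold apart were 104 genes between the 3 h pools and 133 genes between the 27 h pools. The change rests on means of 2 pools and these differences on single pools, so the values are not directly comparable. Tested on the pool values with limma, over 8 male pools with the TCPOBOP groups lending their spread, 746 genes (7.24%) were higher and 773 genes (7.5%) lower at 27 h at an adjusted p under 0.05. Counts of calls in the lists below are to be read against these shares over all genes, 7.24% higher and 7.5% lower. The lists were chosen with earlier results of these data known, so this comparison is a description and no test of the lists. Of the 121 genes above the 2-fold line 85 were called higher, and of the 163 genes below it 113 were called lower. With 2 pools a group the calls lean on every pool: they fell to 66 higher and 64 lower without the shallower 3 h pool and to 89 higher and 121 lower without the deeper 27 h pool. Without the deeper 3 h pool the calls were 284 higher and 249 lower, without the shallower 27 h pool 300 higher and 319 lower, with the vehicle pools alone 459 higher and 452 lower, and without setting the pools to one median 1221 higher and 528 lower. The pools are described as biological pools, and p-values measure the spread between these pools only.

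**Figure D1:**
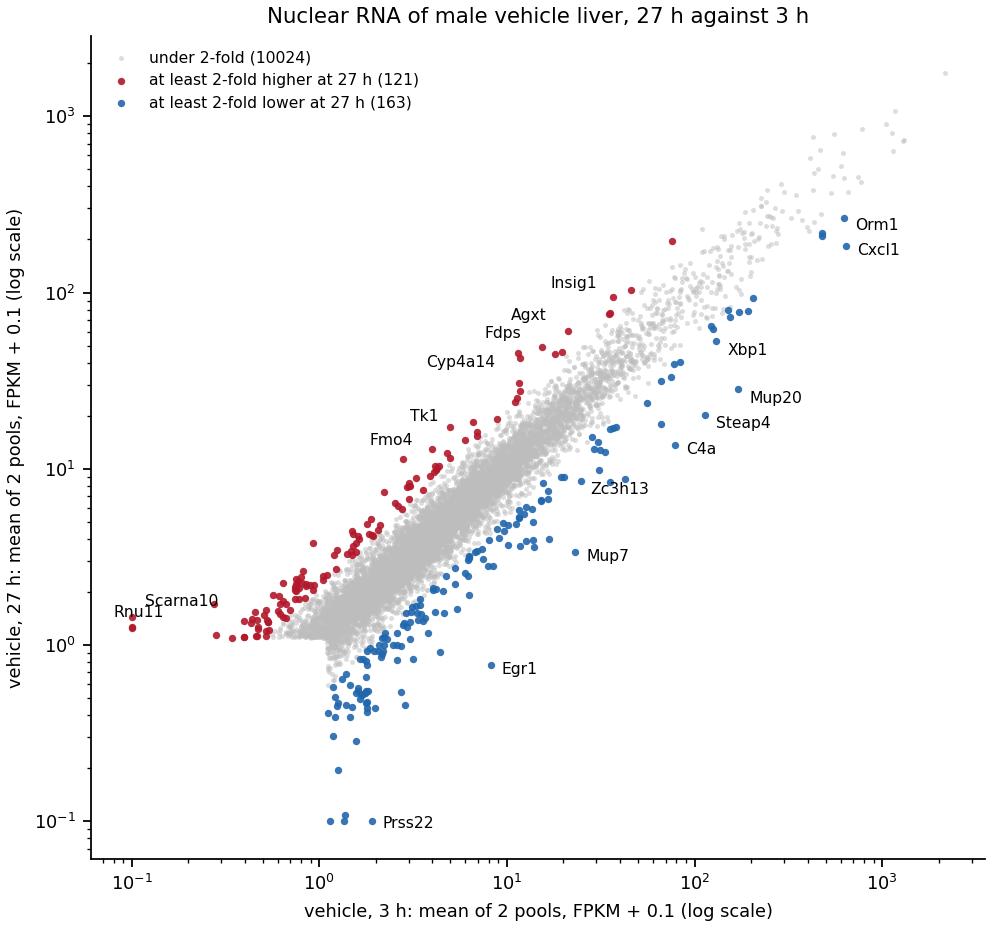
Mean FPKM of the 2 vehicle pools at 3 h (x axis) against 27 h (y axis), both raised by 0.1 and on log scales, for the 10308 kept genes. Red points are the 121 genes at least 2-fold higher and blue points the 163 genes at least 2-fold lower at 27 h. Highly expressed genes of the acute phase (Cxcl1, Orm1) and the urinary protein gene Mup20 lie on the lower side, and Fdps, Insig1 and Agxt on the upper side.

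Genes of cholesterol synthesis were higher on the second day. Of 24 kept members 14 were called higher and none lower by limma, and the median change was 0.73, against 0 for all genes by construction. 7 members were at least 2-fold higher. Fdps makes farnesyl diphosphate, from which sterols and prenyl groups are built (chr3:88897510-88905889, mm9). It read 15.1 and 15.5 FPKM in the deeper and shallower 3 h pools and 49.3 and 48.5 FPKM in the 27 h pools. All 27 h values lay far above all 3 h values, a log2 change of 1.58 ± 0.15 (SE; limma adjusted p = 0.00454).

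Insig1, the sterol sensor that holds SREBP in the endoplasmic reticulum and is itself an SREBP target, went from 33.5 and 39.4 FPKM to 86.5 and 102 FPKM, without overlap. Its log2 change was 1.28 ± 0.15 (SE; limma adjusted p = 0.00789). Changes of 1.34 for the mevalonate decarboxylase Mvd, 1.25 for the squalene synthase Fdft1 and 0.98 for the kinase Pmvk also passed the test. Near no change were 2 members: the isomerase Idi1 was at 21.2 and 21.6 FPKM in the 3 h and 27 h means and the sterol carrier Stard4 at 5.13 and 4.43 FPKM, and neither was called. Leaving out 1 vehicle pool left between 4 and 13 members called higher, fewest without the shallower 3 h pool and 6 without the deeper 27 h pool, while the list's median log2 change stayed between 0.64 and 0.85.

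Acute-phase genes were lower on the second day. Among 29 kept members 14 were called lower and none higher, 9 were at least 2-fold lower, and the median change was -0.80. The largest fall was that of Steap4, a metalloreductase gene induced in inflamed liver (chr5:7960472-7982213, mm9). Its 3 h pools read 85.3 and 142 FPKM and its 27 h pools 17.4 and 23.04 FPKM. Relative to the median quotient of all genes this is a 5.97-fold fall (log2 change -2.54 ± 0.40 (SE), limma adjusted p = 0.0133). Cxcl1, a neutrophil-attracting chemokine, was among the most abundant nuclear transcripts at 3 h, with 577 and 699 FPKM, and read 126 and 239 FPKM at 27 h. The pools of the 2 times did not overlap for either gene.

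Orm1, which encodes the plasma protein orosomucoid, read 553 and 692 FPKM at 3 h and 275 and 252 FPKM at 27 h (log2 change -1.32 ± 0.17 (SE), limma adjusted p = 0.00818). The inter-alpha-inhibitor heavy chain gene Itih4 fell by 1.29, the lipopolysaccharide-binding protein gene Lbp by 1.26 and the C-reactive protein gene Crp by 1.08 on the log2 scale. All 3 fibrinogen chains were called lower, with changes of -0.96 for Fga, -0.92 for Fgb and -0.92 for Fgg, and so were Stat3 (-0.49) and its feedback inhibitor Socs3 (-0.69). Il1r1, the interleukin 1 receptor gene and not a member of the list, went from 59.0 and 72.6 FPKM to 37.4 and 25.6 FPKM (limma adjusted p = 0.0138). The serum amyloid genes Saa1 and Saa2 are near-identical copies whose reads may be shared. They were at means of 1128 and 1048 FPKM at 3 h and 806 and 899 FPKM at 27 h and were not called. Orm2 had a change of 0.46 in the other direction, also without a call. The call count rested on the pools: 1 member was called lower without the shallower 3 h pool, 4 without the deeper 27 h pool, 8 without the deeper 3 h pool and 10 without the shallower 27 h pool, and the median log2 change lay between -0.84 and -0.67 in those fits.

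**Figure D2:**
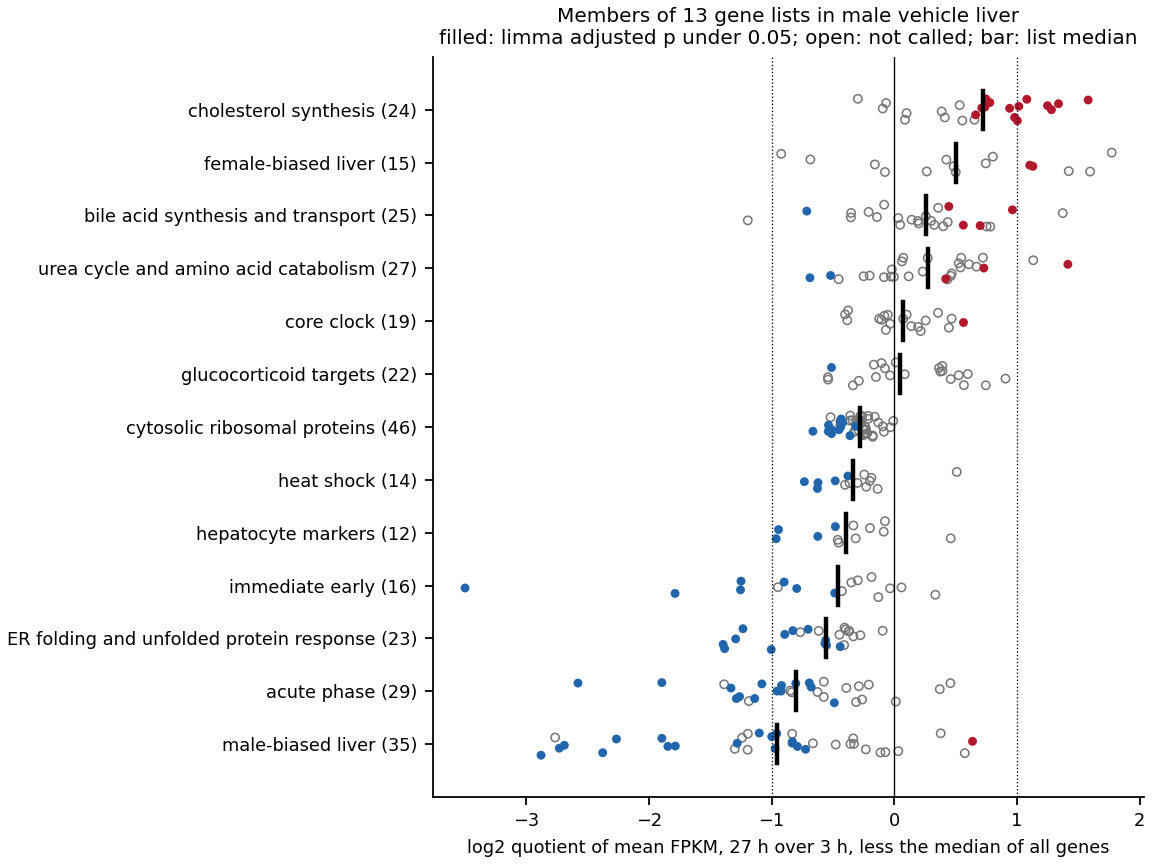
Change of each kept member of 13 gene lists, as the log2 quotient of mean FPKM at 27 h over 3 h less the median of all genes; the number of members is in parentheses. Filled points passed limma at an adjusted p under 0.05 (red higher, blue lower), open points did not, black bars are list medians and dotted lines mark 2-fold. Cholesterol synthesis lies to the right with a median of 0.73 and male-biased genes farthest to the left with a median of -0.96.

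Chaperones and regulators of the endoplasmic reticulum were lower at 27 h. Of 23 members of the folding and unfolded protein response list 12 were called lower and none higher, all 23 had a change under 0, and the median was -0.56. Xbp1, the transcription factor of the response (chr11:5420644-5425996, mm9), read 141 and 120 FPKM at 3 h and 62.3 and 43.2 FPKM at 27 h. Its pools did not overlap, and the log2 change was -1.41 ± 0.17 (SE; limma adjusted p = 0.00761). Syvn1, the ubiquitin ligase that removes misfolded proteins, fell by 1.38 on the log2 scale, the co-chaperone gene Dnajb9 by 1.29, the chaperone gene Hyou1 by 1.23 and Creld2, an isomerase gene of the same response, by 1.00. Hspa5, the main chaperone of the compartment, changed from a mean of 83.6 FPKM to 50.1 FPKM (limma adjusted p = 0.0171), and the sensor gene Atf6 from 2.65 to 1.90 FPKM (limma adjusted p = 0.025). Ern1, the sensor whose product splices Xbp1 mRNA, had a change of -0.77 and Derl3 of -0.09, and neither was called. Between 2 and 7 members were called lower when 1 vehicle pool was left out, with 2 without the shallower 3 h pool and 3 without the deeper 27 h pool, and the median stayed between -0.61 and -0.46.

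Some promoters of this list carry a known element, shown here because it is rare elsewhere. The endoplasmic reticulum stress element consists of CCAAT and CCACG with 9 bases between them and is bound by NF-Y together with ATF6 or XBP1. Within the 250 bases before the annotated start, on either strand, it was present for 9 of 19 list members with a RefSeq promoter and for 35 of 27025 genes in all (0.13%). Of the 9 members with the element 6 were called lower, and of the 10 without it 3 were, while the median changes of the 2 sets were -0.56 and -0.53. The promoters of 3 members, with the element in capitals, are given 5′ to 3′ from RefSeq on GRCm38.p6, Hspa5 at chr2:34771840-34772089 on the plus strand, Creld2 at chr15:88819396-88819645 on the plus strand and Syvn1 at chr19:6046326-6046575 on the plus strand. In Creld2 the element lies on the opposite strand.
Hspa5: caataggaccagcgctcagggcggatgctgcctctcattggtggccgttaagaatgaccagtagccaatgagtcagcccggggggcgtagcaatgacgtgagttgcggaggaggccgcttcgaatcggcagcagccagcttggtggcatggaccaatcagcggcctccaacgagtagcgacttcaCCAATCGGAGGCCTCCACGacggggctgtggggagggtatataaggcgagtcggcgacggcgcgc
Creld2: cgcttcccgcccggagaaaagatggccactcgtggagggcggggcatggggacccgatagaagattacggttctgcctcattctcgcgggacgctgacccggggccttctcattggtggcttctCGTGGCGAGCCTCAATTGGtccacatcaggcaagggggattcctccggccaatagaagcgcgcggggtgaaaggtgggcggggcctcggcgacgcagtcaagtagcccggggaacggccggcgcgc
Syvn1: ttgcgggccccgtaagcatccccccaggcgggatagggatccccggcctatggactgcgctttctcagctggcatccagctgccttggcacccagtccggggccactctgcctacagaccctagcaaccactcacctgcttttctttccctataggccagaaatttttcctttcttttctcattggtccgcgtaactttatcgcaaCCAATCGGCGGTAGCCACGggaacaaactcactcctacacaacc
The element lies 47 to 65 bases before the start in Hspa5, 108 to 126 in Creld2 and 26 to 44 in Syvn1. A STAT element, TTCC and GGAA with 1 base between them, was searched in the same way for the acute-phase list. It was present for 2 of 24 members with a promoter and for 295 of 27025 genes in all (1.09%). These matches describe the letters of the windows and do not show binding in these livers.

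Cytosolic chaperones and ribosome genes moved less but in the same direction. Of 14 heat shock genes 5 were called lower, led by Hsp90aa1, which encodes an inducible HSP90 and read 20.1 and 22.1 FPKM at 3 h and 13.8 and 13.2 FPKM at 27 h (log2 change -0.73 ± 0.09 (SE), limma adjusted p = 0.00818). The constitutive HSP70 gene Hspa8 had a change of -0.63. Among 24 genes of ribosome biogenesis 9 were called lower, with a change of -0.93 for Gnl3, a nucleolar GTPase gene. All 46 genes of cytosolic ribosomal proteins had a change under 0 and 12 were called lower, with a median of -0.28. Without the shallower 3 h pool none of the members of these 3 lists was called, and without the median setting 3 of the ribosomal protein genes had a change above 0.

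Immediate early genes, which cells transcribe within minutes of a stimulus, were lower at 27 h for several members. Of 16 kept members 7 were called lower and none higher, and the median was -0.46. Egr1, a zinc finger factor, had the largest fall of the list: it read 10.2 and 5.98 FPKM at 3 h and 0.846 and 0.499 FPKM at 27 h (log2 change -3.48 ± 0.52 (SE), limma adjusted p = 0.0114). The AP-1 genes Fos, Jun and Junb had changes of -1.79, -1.25 and -1.25, each called. Dusp1 and Ier2, members of the same list, were at 13.8 and 14.3 FPKM and at 8.89 and 8.64 FPKM in the 3 h and 27 h means and were not called. Myc was high in single pools, with 6.05 and 1.23 FPKM at 3 h and 2.82 and 1.11 FPKM at 27 h, so that the groups overlapped. Without the shallower 3 h pool no member was called, and without the other 3 vehicle pools in turn 2 to 4 were.

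Male-biased genes were lower on the second day, and the major urinary proteins led the list. Of 35 kept male-biased genes 17 were called lower and 1 higher, 15 were at least 2-fold lower, and the median was -0.96. Major urinary proteins are pheromone carriers that male liver secretes into the urine, and their genes sit in a cluster on chromosome 4. All 16 kept Mup genes had a change under 0, from -2.88 for Mup7 to -0.39 for Mup8, and 11 were called lower. Together they summed to 945 and 1207 FPKM in the deeper and shallower 3 h pools and to 523 and 485 FPKM in the 27 h pools. The copies are near-identical, and how reads that fit more than 1 copy were counted was not examined. The split between the copies is therefore uncertain, and their sum may be affected too.

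Mup20 encodes darcin, a pheromone of male urine whose sequence stands apart from the central copies (chr4:61711269-61715151, mm9). It read 140 and 202 FPKM at 3 h and 20.9 and 35.4 FPKM at 27 h. Relative to the median quotient of all genes this is a 6.45-fold fall (log2 change -2.71 ± 0.29 (SE), limma adjusted p = 0.00614). The most abundant copy, Mup3, changed by -0.83 (limma adjusted p = 0.0371), from means of 469 to 280 FPKM. C4a, the sex-limited protein of male mice and a near copy of complement C4b, read 78.0 and 78.2 FPKM at 3 h and 13.8 and 13.1 FPKM at 27 h (log2 change -2.61 ± 0.21 (SE), limma adjusted p = 0.00306). Its neighbour C4b had a change of -0.66, and reads of the 2 copies may have been exchanged. The fatty acid elongase gene Elovl3 had a change of -1.78 and the antitrypsin copy Serpina1d of -1.98, both called. Cyp7b1, an oxysterol hydroxylase gene, was at 8.24 and 30.4 FPKM at 3 h and at 7.74 and 10.1 FPKM at 27 h, a difference that rests on the shallower 3 h pool. Fmo1, a flavin monooxygenase gene, was the member called higher, with a change of 0.64. Fits that left out 1 vehicle pool called 6 to 10 members lower, fewest without the shallower 3 h pool, and 7 without the deeper 27 h pool.

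Female-biased genes leaned the other way, with few calls. The median of 15 kept members was 0.50 and 5 were at least 2-fold higher, but only the P450 genes Cyp2c38 and Cyp2c39 passed the test, and both have close copies. Cyp2c39 read 3.89 and 3.72 FPKM at 3 h and 9.37 and 8.61 FPKM at 27 h (log2 change 1.13 ± 0.09 (SE), limma adjusted p = 0.00306). Cyp4a14, a fatty acid hydroxylase gene, was at 19.5 and 3.76 FPKM at 3 h and 60.5 and 24.4 FPKM at 27 h, and Cyp2b9 at 1.51 and 1.30 and then 6.43 and 1.96 FPKM. In both genes one pool of a time was several times the other, and neither was called. Growth hormone signalling itself, with 19 kept members, had a median of 0.01 with 3 members called lower.

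Other metabolic lists held calls for some of their enzymes. Over all fitted genes 7.24% were called higher and 7.5% lower, and the counts of the urea cycle list were not far from those shares. Agxt, which detoxifies glyoxylate (chr1:95031817-95041998, mm9), read 21.1 and 21.3 FPKM at 3 h and 68.2 and 52.3 FPKM at 27 h (log2 change 1.41 ± 0.14 (SE), limma adjusted p = 0.00529), while 3 of the 27 genes of the urea cycle and amino acid catabolism were called higher and 2 lower. Of 17 genes of one-carbon and methionine metabolism 4 were called higher and none lower, with a median of 0.18. Cth, which makes cysteine from cystathionine, had a change of 1.24 and the glutaminase gene Gls2 of 0.73, both called. Cyp7a1, the rate-limiting enzyme of bile acid synthesis, was at 3.00 and 2.83 FPKM at 3 h and at 5.04 and 11.4 FPKM at 27 h, a change of 1.37 that missed the threshold (limma adjusted p = 0.0616). Akr1d1, a reductase gene of the same pathway, did pass with a change of 0.96.

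Lower on the second day were the hormone gene Fgf21 with a change of -1.40 and the lipid droplet gene Plin4 with -1.02, both called. In the list of 31 genes of fatty acid oxidation and PPAR alpha 1 was called higher and 5 lower, and the median was -0.07. The lipogenic gene Thrsp (-1.16), the transcription factor gene Onecut1 (-1.22), the secreted factor gene Tsku (-1.25) and the cholesterol exporter gene Abca1 (-1.01) were called lower as well. Among growth genes the thymidine kinase Tk1, used in DNA synthesis, went from 4.61 and 5.15 FPKM to 21.96 and 12.3 FPKM (limma adjusted p = 0.0221), with 2 of 12 replication genes called higher, and none of the 25 mitosis genes of the table reached 1 FPKM. The pro-apoptotic gene Bbc3 read 1.14 and 1.13 FPKM at 3 h and 3.33 and 3.38 FPKM at 27 h (limma adjusted p = 0.00371).

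Both days were sampled at the same clock hour, and the values of clock genes are given here. An effect of timing was not tested. Of 19 kept core clock genes none was 2-fold different, the median change was 0.07, and Arntl alone was called, with a change of 0.56. Nr1d1, a repressor with a steep daily rhythm, read 9.83 and 8.84 FPKM at 3 h and 9.16 and 9.63 FPKM at 27 h. Per2 was at means of 3.25 and 3.38 FPKM and Dbp at 3.94 and 3.19 FPKM. Of 18 kept clock-controlled output genes 1 was called higher and 4 lower, with changes from -1.73 for Rgs16, a regulator of G protein signalling, to 1.37 for Cyp7a1, which was not called. Of 22 glucocorticoid targets 1 was called lower and none higher, and of 16 interferon response genes none was called either way.

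Marker lists of other liver cells had smaller median changes than that of hepatocytes, which was -0.39 with 11 of 12 members under 0. Medians were -0.02 for 16 Kupffer and macrophage genes, -0.11 for 16 sinusoidal endothelial genes and -0.17 for 12 stellate and fibroblast genes, all of them under 0 and 2 called lower. Their summed means at 3 h and 27 h were 119 and 128 FPKM, 193 and 204 FPKM, and 74.3 and 71.0 FPKM. Neutrophil markers summed to 14.6 and 14.03 FPKM over 11 genes and lymphocyte markers to 13.5 and 13.6 FPKM over 15 genes. The single members Lyz2, a lysozyme gene of macrophages (-1.54), Retnlg of neutrophils (-1.15) and Gzma of cytotoxic lymphocytes (-1.12) were called lower. In their lists 8 of 16 Kupffer and macrophage, 2 of 5 kept neutrophil and 3 of 5 kept lymphocyte genes had a change above 0. Called higher were 2 sinusoidal endothelial genes and 1 of 3 kept cholangiocyte genes. Of 12 hepatocyte markers 4 were called lower, Alb among them with a change of -0.94. In bulk nuclei fewer cells of a type and less RNA per cell cannot be told apart, and the part of cell composition in the results was not tested.

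The genes with the smallest adjusted p lay outside these lists. Zc3h13, which encodes a subunit of the complex that writes N6-methyladenosine on mRNA (chr14:75684180-75744233, mm9), read 31.1 and 30.6 FPKM at 3 h and 10.2 and 9.25 FPKM at 27 h (log2 change -1.74 ± 0.09 (SE), limma adjusted p = 0.000616). Fmo4, a flavin monooxygenase gene, went the other way, from 4.15 and 3.60 FPKM to 12.5 and 13.1 FPKM (log2 change 1.62 ± 0.10 (SE), limma adjusted p = 0.00139). Both pools of each time lay close together in these genes. Hmgn5, a nucleosome-binding protein gene, had a change of -1.67, the magnesium transporter gene Slc41a1 of -1.41 and the forkhead factor gene Foxq1 of -1.56. On the higher side stood BC029214 (1.91), the metalloprotease gene Adamts7 (1.66), the pro-apoptotic gene Bmf (1.57), the imprinted gene Peg3 (1.31) and the murinoglobulin gene Mug2 (1.27), all called.

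**Figure D3:**
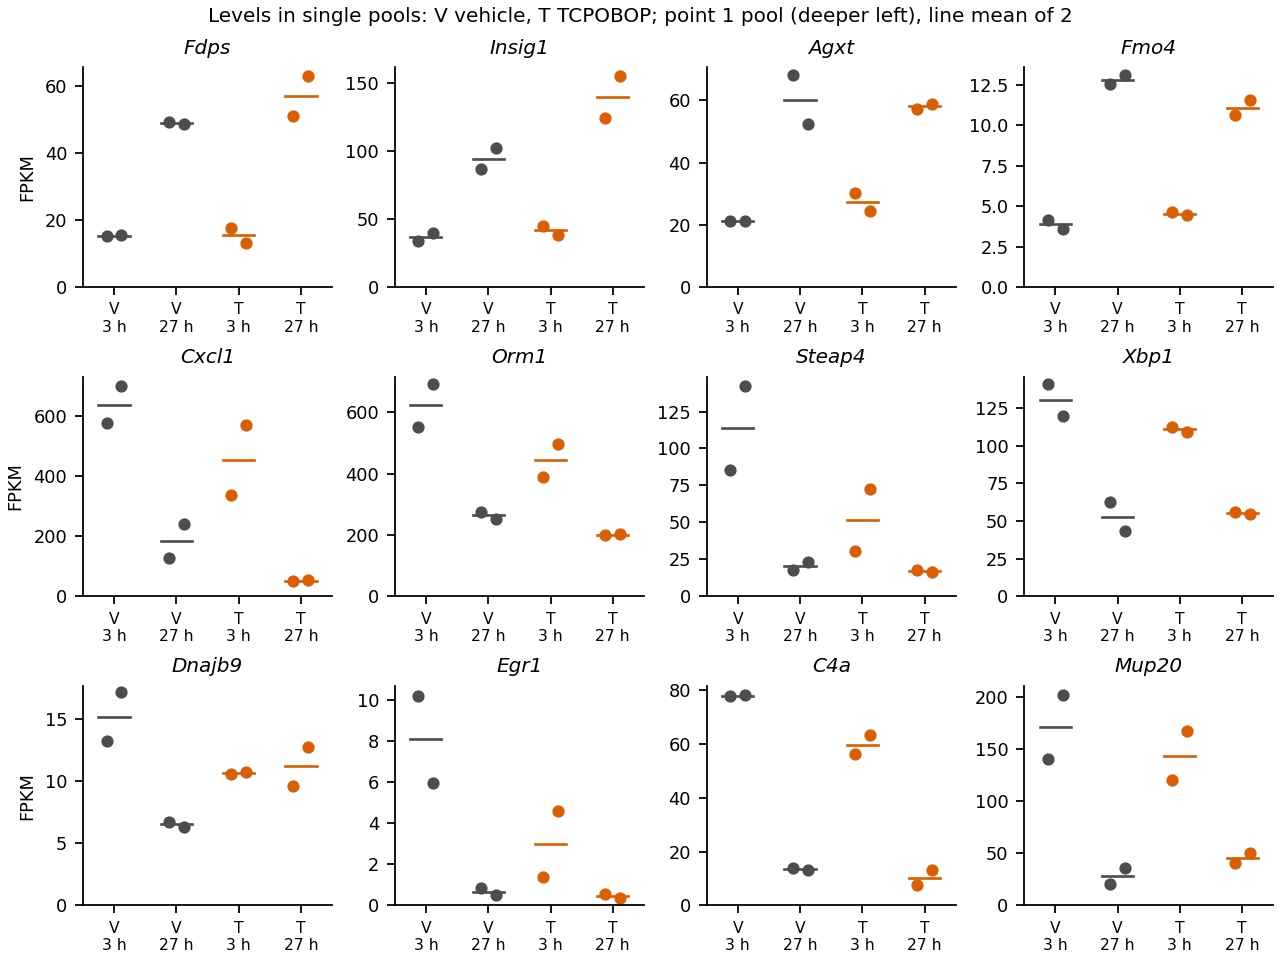
FPKM of 12 genes in each recovered pool of the vehicle (V, grey) and TCPOBOP (T, orange) groups at 3 h and 27 h; each point is 1 pool, the deeper one on the left, and lines are means of 2 pools. The Fdps pools of vehicle livers lie at 15.1 and 15.5 FPKM at 3 h and at 49.3 and 48.5 FPKM at 27 h, and Dnajb9 is lower at 27 h in the vehicle pools but not in the TCPOBOP pools.

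Some large quotients were not called. The lowest quotient among longer genes, that of the protease gene Prss22, came from 3.59 FPKM in the deeper 3 h pool and 0 in the other 3 vehicle pools (limma adjusted p = 0.315). Rassf4 was at 53.2 and 17.1 FPKM at 3 h and at 9.64 and 7.02 FPKM at 27 h: its pools did not overlap, but the spread within 3 h was wide (limma adjusted p = 0.116).

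Short noncoding RNA genes were frequent on both sides. Libraries were poly(A)-selected, and whether reads at these genes come from the small RNA or from a longer transcript over it was not tested. Genes spanning under 1500 bp made up 23 of the 121 higher genes (19.01%) and 38 of the 163 lower genes (23.3%), against 3.59% of all kept genes. Of the 54 microRNA and small nucleolar or Cajal body RNA genes among them, 17 higher and 37 lower, limma called 5 and 13. The median change was -0.52 for 82 kept small nucleolar and Cajal body RNA genes and -0.11 for 116 kept microRNA genes. Rnu11, a small nuclear RNA of the minor spliceosome, had 0 reads in both 3 h pools and 6 and 3 recovered reads at 27 h. Scarna10 had 0 reads and then 5 and 2 recovered reads. Unless a common factor was missed, their changes rest on few reads.

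The TCPOBOP pools offer the same comparison of 27 h against 3 h in other mice of the same experiment, treated on the same schedule. Effects of day or handling may be shared by both comparisons, so this is no replication over other days. In them 302 genes (2.93%) were called higher and 288 genes (2.79%) lower at 27 h, effects of the drug included. Of the 746 genes called higher in vehicle pools 83.5% were above 0 in the TCPOBOP pools and 129 (17.3%) were called higher there, which is 42.7% of the TCPOBOP calls. Of the 773 genes called lower 79.0% were below 0 and 148 (19.1%) were called lower, which is 51.4% of the TCPOBOP calls. Over all fitted genes 48.9% of the TCPOBOP changes were above 0. Calls in opposite directions occurred for 3 of the 746 and 7 of the 773 genes.

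Lists differed in how they moved under TCPOBOP. Cholesterol synthesis had a median of 1.05 with 20 of 24 members called higher, and acute-phase genes a median of -0.91 with 11 of 29 called lower and 1 higher. The endoplasmic reticulum list had a median of 0.00 with 3 of 23 members called lower. Male-biased genes had a median of -0.61 with 5 of 35 called lower and 1 higher, and the 16 Mup genes one of -0.70 with 1 called lower. Medians were 0.03 for heat shock genes, -0.02 for cytosolic ribosomal proteins and -0.13 for ribosome biogenesis, with 0 members called in each. Immediate early genes had a median of -0.26 with 3 of 16 called lower. Dnajb9 read 10.6 and 10.7 FPKM at 3 h and 9.61 and 12.8 FPKM at 27 h in the TCPOBOP pools, and the difference of its 2 changes missed the threshold (log2 -1.32 ± 0.22 (SE), limma adjusted p = 0.0936). For Serpina1d the difference was -1.62 ± 0.25 on the log2 scale (SE; limma adjusted p = 0.0776). Across all genes the difference between vehicle and TCPOBOP changes was called for 2, Cyp2c53-ps and Nup205, and 1720 had an unadjusted p under 0.05.

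**Figure D4:**
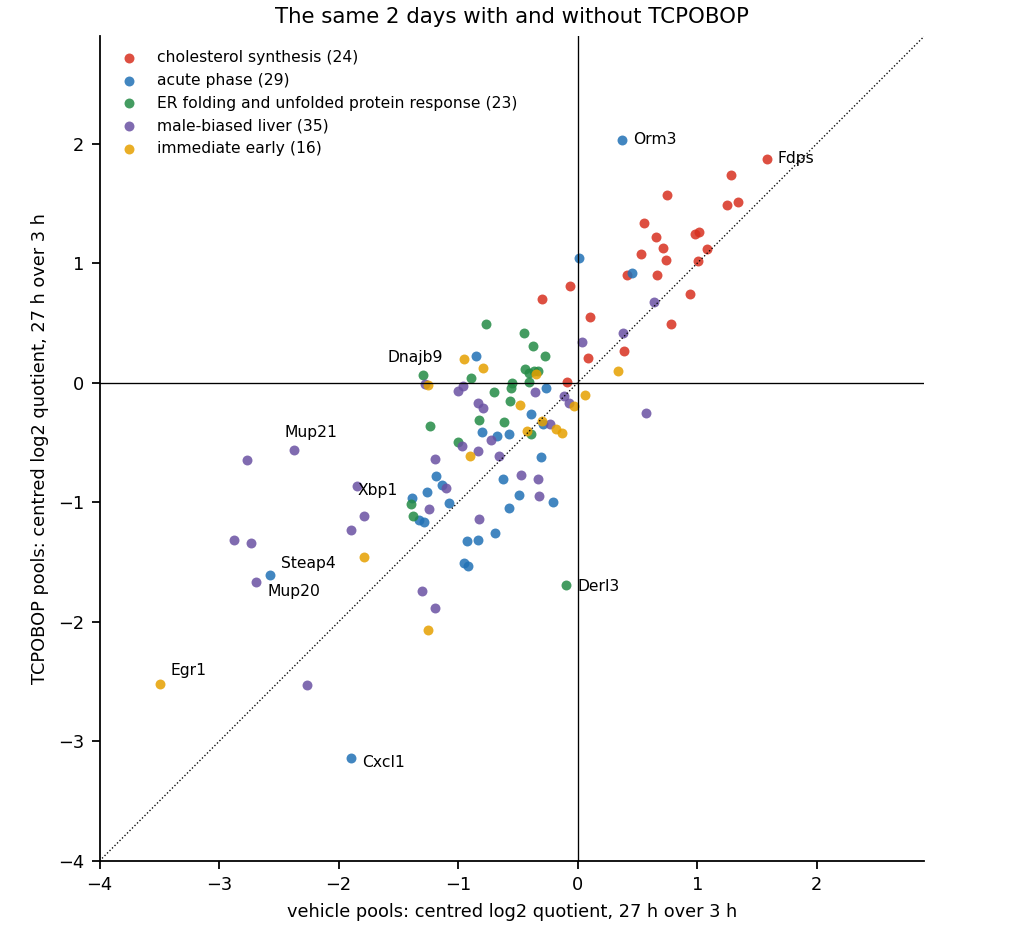
Centred log2 quotient of mean FPKM at 27 h over 3 h in the vehicle pools (x axis) and in the TCPOBOP pools (y axis) for the members of 5 lists; the dotted line marks equal change and 1 point is 1 gene. Cholesterol genes lie in the upper right with medians of 0.73 and 1.05, acute-phase genes mostly in the lower left with medians of -0.80 and -0.91, and endoplasmic reticulum genes left of 0 but around 0 on the y axis with medians of -0.56 and 0.00.

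Female vehicle pools of the same 2 times, 2 pools each, are given as group means with fewer decimals, from which pool values were not recovered, so no test was made. At least 2-fold differences were more frequent there, with 659 genes higher and 786 lower of 10408. Of the 121 genes higher in males 67 were at least 2-fold higher in females and 7 at least 2-fold lower, and of the 163 lower genes 107 were at least 2-fold lower and 6 at least 2-fold higher. Median changes in females were 1.23 for cholesterol synthesis, -1.75 for the acute phase, -0.86 for the endoplasmic reticulum list and -0.66 for immediate early genes. Male-biased genes had a female median of -0.49, and the 16 Mup genes one of -1.67 against -1.83 in males, with single copies from -2.11 for Mup13 and -1.20 for Mup7 to -0.45 for Mup20. C4a had a change of -0.14 and Cyp2c39 of -1.12 in females. The clock output gene Dbp had a female change of 5.07 against -0.38 in males, and the core clock list a median of 0.39 against 0.07. Whether the female groups were at the same point of the daily rhythm was not tested. The female values are therefore given side by side only.

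The 3 h vehicle group of the PCN set, 3 pools of 4 livers each from another library set, gave a further 3 h mean. Library type and read counter differ between the sets, and their part in the differences below was not tested. With its mean in place of the 3 h mean, Fdps had a change of 1.46, Cxcl1 of -1.65, Orm1 of -1.29, Xbp1 of -1.24, Egr1 of -3.77, C4a of -2.98 and Mup20 of -2.33, all in the direction given above. Other genes moved more: Hsp90aa1 had a change of -0.16 and Idi1 of 0.71, and of 113 genes examined 41 moved by more than the spread between pools and 2 reversed. The 2 groups of 3 h vehicle livers nevertheless differed at least 2-fold in 119 genes upward and 304 downward of 10092, after a shift of 0.69 in the median of all genes. Both quotients use the same 27 h pools.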

How the data were processed

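Nuclear RNA was sequenced by the study; per the submitters' processing notes, TopHat2, HTSeq 0.6.1p1, featureCounts 1.4.6-p5, edgeR and the mm9 build were used. The authors deposited mean FPKM per group, with the ratio and adjusted p-value of their own TCPOBOP comparisons, which are not printed here. From the deposited FPKM the 2 depths of each male group were solved as whole numbers (genes of 1 read lay within 0.0011 of a whole read), then length and reads per gene. Reads were recovered for 10608 of 10609 genes. On simulated data every read was right for 299 of 300 genes and the FPKM of every pool for 300 of 300. For 292 of 400 genes under 1500 bp at a single location the recovered length equalled the span. Gene length is known only up to a common factor, which also scales the reads and leaves FPKM unaffected.

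limma 3.58.1 (R 4.3.3) was fitted to log2(FPKM + 0.1) of 8 pools in 4 groups, each pool set to the same median, with a trended prior and Benjamini-Hochberg adjustment over 10307 genes; it was checked on simulated data. No test had been planned, since the table was taken to hold means only; recovery and limma were added after seeing the data. Fitted changes (with SE) come from limma, gene changes and folds without SE from the group means. List medians come from the group means, except in fits that left out a pool, where they are limma medians. The main limma fit gave an acute-phase median of -0.69. Members and lists were chosen with earlier results of these data known. Of 982 list symbols 973 matched the table, older symbols through RefSeq. Named genes were the 15 largest rises and falls among genes of at least 1500 bp, the 8 largest among those at 20 FPKM or more, list members at 2-fold (otherwise the 3 farthest from 0) and genes at 2-fold in the vehicle pools, the TCPOBOP pools and against the PCN set. Only part of the genes this rule gives are printed, and genes printed outside it, such as Il1r1, were chosen after their values were seen. Alternatives changed pseudocount, minimum, centring, span, fold, the 3 h group and the pools fitted. Some genes are not reported here.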

Additional observations from a re-analysis of the deposited data

Results flagged for a closer look

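The change from 3 h to 27 h differed between the vehicle and the TCPOBOP pools for 2 genes by limma's test of the difference. The pseudogene Cyp2c53-ps read 1.75 and 1.38 FPKM at 3 h and 0.459 and 0.401 FPKM at 27 h in vehicle pools, and 50.9 and 44.8 FPKM and then 111 and 102 FPKM in TCPOBOP pools. Its difference in log2 change was -2.88 ± 0.19 (SE; limma adjusted p = 0.00404), and its reads may be shared with other Cyp2c copies.

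The nucleoporin gene Nup205 read 2.04 and 2.13 FPKM at 3 h and 1.91 and 2.01 FPKM at 27 h in vehicle pools, against 2.62 and 2.31 FPKM and then 7.49 and 8.03 FPKM in TCPOBOP pools. Its difference was -1.77 ± 0.14 on the log2 scale (SE; limma adjusted p = 0.00838). In both genes the 2 pools of each group lay close together.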

How the results depend on the processing

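The 121 genes higher and 163 lower by 2-fold became 42 and 85 with a pseudocount of 1 FPKM, 272 and 334 with a minimum of 0.1 FPKM, 43 and 77 with a minimum of 5 FPKM, 285 and 320 with no minimum, 224 and 431 against the 3 h vehicle mean of the PCN set, 573 and 571 at a fold of 1.5 and 19 and 53 at a fold of 3. The 68 list members at 2-fold became 203 and 18 at those folds. The limma calls, 746 higher and 773 lower, became 459 and 452 with the vehicle pools only and 1221 higher with no centring, and ranged from 66 to 300 higher and from 64 to 319 lower when 1 vehicle pool was left out, where the lone pool is assumed to vary like the other groups. Of 85 called genes among 113 examined one by one, 23 to 62 were still called with 1 pool left out and none changed sign. Only Mup13 (1.04) and A1bg (-0.43) reversed, against the PCN set. The causes were not tested. No paired analysis was possible because the recovered pools carry no pool number. A gene near 1 FPKM in a 1 kb transcript rests on about 62 reads, so changes of short or weak genes are the least certain.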
